A study of Homo sapiens with 16 samples.

Results

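Of the 24350 probes on the array that are named by GI sequence numbers, 164 were raised by cisplatin after 12 h while staying near control with A0 at the same time, and these 164 are described here over every group of the series. They were chosen on the authors' processed values. Each value was raised to at least 32, turned to log2 and averaged over the 2 arrays of a group, and the mean of the 2 control arrays was taken off. A probe was a member if this difference was at least 1 (a doubling) at cisplatin 12 h and between -0.5 and 0.5 at A0 12 h, and if its detection score reached 0.99 on both cisplatin 12 h arrays. The values of cisplatin 12 h, A0 12 h and control therefore chose the members, and they are given as a description with no test.

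The cells were HT1080, a human fibrosarcoma line, and total RNA was hybridised to 16 single-colour Illumina bead arrays. Cells had received cisplatin for 3, 6 or 12 h, or the copper complex A0 for 1, 3, 6 or 12 h, both at 25 µM in complete growth medium, and control cells had received neither as far as the labels say. Each of the 8 groups had 2 arrays. No time or vehicle is labelled for the controls. Nothing in the labels tells whether paired arrays came from separate cultures, and the p-values below reflect array-to-array spread that may be purely technical. All groups are the same single line, and no probe can be paired with a gene through the files or tables used here, so the line's identity was not checked against marker genes and members are described by their behaviour and not by function.

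Cisplatin is a platinum drug whose adducts crosslink the bases of DNA. The crosslinks stall replication and transcription, activate damage checkpoints and the p53 pathway, and so change transcript levels over hours. A0 is a copper(II) complex of a thioxotriazole ligand, and the study's title links it to endoplasmic reticulum stress and to paraptosis, a form of cell death marked by swelling of that compartment. The design sets a DNA-damaging metal drug beside this copper complex over time, and the 164 probes are the side of the comparison that moved with cisplatin at 12 h and not with A0.

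The choice of members was narrow in A0 and uneven between the cisplatin arrays. Of 343 probes that were at least 1 above control at cisplatin 12 h and detected on both of its arrays, 164 met the limit on A0, 122 stood at least 0.5 above control with A0 12 h and 57 at least 0.5 below. The 3 members closest to the first limit had differences of 1.002, 1.003 and 1.004 at cisplatin 12 h, and the 3 nearest probes that missed it had 0.9998, 0.995 and 0.994. At the limit on A0, the nearest members stood 0.495, 0.488 and 0.485 from control in either direction, and the nearest probes outside stood 0.506, 0.507 and 0.515 from it. Only 1 probe was lost through the detection score. The 2 cisplatin 12 h arrays differed in the processed values: replicate 1 stood above replicate 2 by a median of 0.368 on the log2 scale over the members and by 0.121 over the 9293 probes tested. Without cisplatin 12 h replicate 2 the same limits would take 378 probes, of which 147 are among the 164, and without replicate 1 they would take 140, of which 101 are.

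At 12 h most members were raised modestly. The difference from control at cisplatin 12 h ran from 1.00 to 2.79 with a median of 1.24, and it was below 1.5 for 126 members, between 1.5 and 2 for 27 and at least 2 for 11. At A0 12 h it ran from -0.48 to 0.49. Both controls detected 108 of the members, 1 of the 2 controls detected 33, and neither detected 23. For the 24 members whose processed value was below 32 on both control arrays the difference was measured from 32 in place of the control, so it sets no order among the members. A further 28 lay below 32 on 1 control array, so their control mean was partly set by this floor. Where control and A0 12 h arrays all lay below 32, the difference at A0 12 h was 0 through the floor and not by measurement. On all GI probes, 1.41% were at least 1 above control at cisplatin 12 h, from which nothing follows because this contrast chose the members.

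A separate normalisation of the scanner signals gave smaller changes. In it, background was estimated from the detection scores and arrays were brought to a common distribution of log2 signals. On that scale the members stood 0.75 to 2.34 above control at cisplatin 12 h with a median of 1.10, 108 of the 164 still reached 1, and 141 stayed within 0.5 of control at A0 12 h. Of the 23 that did not, 21 lay lower than control and 2 higher. Both limits were met by 94 members. All values below are on this normalised log2 scale unless the processed values are named.

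Array by array, the median member stood above the control mean by 0.29 and 0.34 at cisplatin 3 h, by 0.73 and 0.84 after 6 h, and by 1.27 and 1.01 after 12 h. With A0 it stood at 0.07 and 0.10 after 1 h, 0.07 and 0.15 after 3 h, -0.01 and 0.02 after 6 h, then -0.10 and -0.07 after 12 h. The median thus climbed with time in cisplatin, while under A0 it stayed within 0.15 of control on each of the 8 arrays. The levels at 12 h of both drugs follow from the choice. The RNA came from whole cultures, so a change in every cell cannot be told apart from a change in some of them. Cisplatin 3 and 6 h and A0 1, 3 and 6 h share the control arrays with the choice of members, so their differences from control are also a description.

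**Figure D1:**
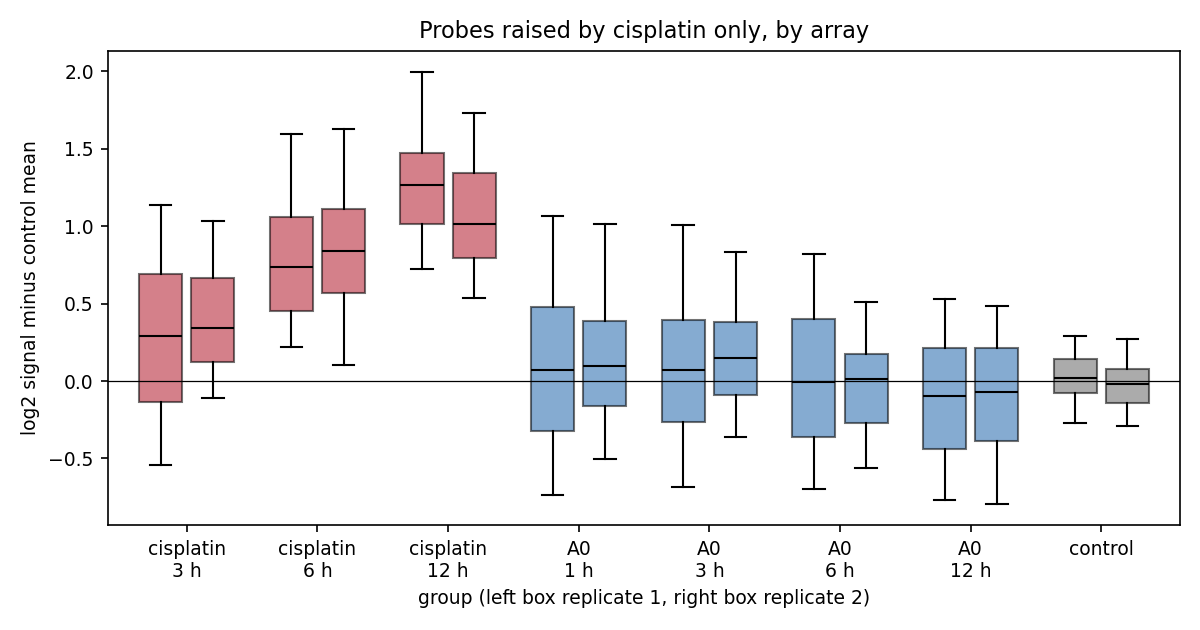
Normalised log2 signal of the 164 members minus the mean of the 2 control arrays (y axis), for each of the 16 arrays (x axis, 2 boxes per group). Boxes span the quartiles over probes with the median as a line, and whiskers run from the 5th to the 95th percentile. The medians climb to 1.27 and 1.01 at cisplatin 12 h and lie between -0.10 and 0.15 on the A0 arrays.

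The first question for which the groups compared lie outside the choice is whether the members already differed between the drugs at 6 h. The variance in the test still draws on all 16 arrays. Many did. Limma's moderated test called 60 of the 164 members higher with cisplatin 6 h than with A0 6 h and 0 lower, at a Benjamini-Hochberg adjusted p under 0.05 over all probes tested. That is 36.6% of the members, where 4.84% of the 9293 tested probes were called higher and 3.29% lower. The median difference over the members was 0.73 on the log2 scale, with quartiles of 0.45 and 1.14, against -0.0039 over all probes tested, with quartiles of -0.29 and 0.29. The measured difference was above 0 for 153 members and below 0 for 11. At an unadjusted p under 0.05, 103 members were higher and 0 lower, where 12.4% of all probes tested were higher and 10% lower. All 164 members were among the probes tested because the choice required detection at cisplatin 12 h, and 8 of them passed the detection filter through that group alone.

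For most members the arrays of the 6 h groups did not overlap. Both cisplatin 6 h arrays read above both A0 6 h arrays for 127 members, or 77.4%, and below both for 0. Over all probes tested these shares were 26.3% and 24.2%. Detection moved in the same direction: cisplatin 6 h replicates 1 and 2 detected 158 and 157 of the members, and A0 6 h replicates 1 and 2 detected 99 and 123. Over the whole array the same pairs detected 8719 and 8835 probes with cisplatin and 7966 and 8948 with A0, so A0 6 h replicate 1 detected fewer probes in general and replicate 2 did not.

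The 60 called members ranged from 1.59-fold to 9.31-fold higher with cisplatin 6 h than with A0 6 h, with a median of 2.44-fold. On the log2 scale 4 of them differed by at least 2, 46 by between 1 and 2, and 10 by less than 1. Both arrays of A0 6 h detected 31 of the 60, 1 of them detected 10, and neither detected 19, so for the 19 the measured fold rests on a signal below detection. Cisplatin 6 h detected 59 of the 60 on both arrays. Set beside the controls, both cisplatin 6 h arrays read above both control arrays for all 60. Both A0 6 h arrays read below both controls for 19 of the 60, a set counted apart from the undetected ones. They overlapped the controls for 40 and read above both for 1. The folds are thus not a measure of the rise with cisplatin alone. The controls helped to choose the members, so these counts are a description.

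The count of 60 depended on single arrays of the 2 groups compared. It became 18 without cisplatin 6 h replicate 2, 30 without cisplatin 6 h replicate 1 and 33 without A0 6 h replicate 1, and all probes called higher became 1.23%, 2.15% and 2.45% in the same fits. With only the 4 arrays of these groups in the model it became 16, beside 1.42% of all probes tested. A group left with 1 array is assumed to vary like the others and loses power. Replicates of A0 6 h differed over the members with an SD of 0.609, the widest of the 8 groups, and those of cisplatin 6 h with an SD of 0.368.

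The next question was whether the drugs differed at these probes as early as 3 h. Limma's test called 0 members in either direction between cisplatin 3 h and A0 3 h, and 1 probe in each direction, or 0.0108%, among all those tested. At an unadjusted p under 0.05, 25 members were higher with cisplatin and 3 lower, where 2.7% and 2.77% of all probes tested were. The median member differed by 0.21 on the log2 scale, with quartiles of -0.03 and 0.47, against -0.0078 over all probes tested. The measured difference was above 0 for 116 members and below 0 for 48. Both cisplatin 3 h arrays read above both A0 3 h arrays for 60 members, or 36.6%, and below both for 9, or 5.49%, where 14.8% and 15.6% of all probes tested did. Cisplatin 3 h replicates 1 and 2 detected 114 and 150 members, and A0 3 h replicates 1 and 2 detected 100 and 143. Detection followed the replicate number more than the drug at this time. The absence of calls at 3 h does not show that the members were equal, since the median standard error of a difference was 0.284.

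**Figure D2:**
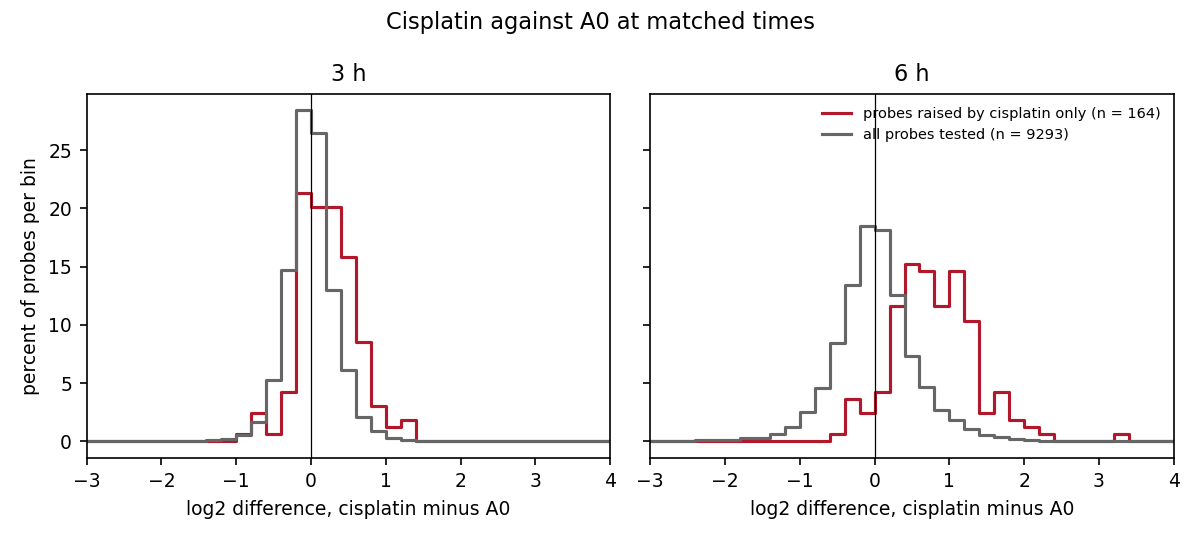
Distribution of the log2 difference between cisplatin and A0 (x axis) at 3 h (left) and 6 h (right), as percent of probes per bin of 0.2 (y axis), for the 164 members and for the 9293 probes tested. The members' median lies at 0.21 at 3 h and at 0.73 at 6 h, and that of all probes near 0 at both times.

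Movement within each drug between 3 and 6 h was measured next, again between groups outside the choice. Between cisplatin 6 h and cisplatin 3 h limma's test called 0 members, and 0% of all tested probes higher and 0.0968% lower. The median member was 0.45 higher at 6 h on the log2 scale, with quartiles of 0.23 and 0.70, against 0.02 over all probes tested. At an unadjusted p under 0.05, 62 members were higher and 0 lower, where 4.71% and 4.98% of all probes tested were. Both 6 h arrays lay above both 3 h arrays for 105 members, or 64%, and below both for 3, or 1.83%, beside 21.8% and 17.4% of all probes tested.

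The values under A0 over the same interval were smaller and mostly of the other sign. Between A0 6 h and A0 3 h limma's test called 0 members and 0% of all tested probes in either direction, and at an unadjusted p under 0.05 there were 4 members higher and 11 lower, beside 2.17% and 3% of all probes tested. The count of higher members is near that background. The median member was -0.12 at 6 h relative to 3 h, with quartiles of -0.33 and 0.06, and the median over all probes tested was -0.0064. Both A0 6 h arrays lay above both A0 3 h arrays for 15 members, or 9.15%, and below both for 32, or 19.5%, where 13.9% and 16% of all probes tested did. The test of the difference between these movements, the interaction of drug and time from 3 to 6 h, called 0 members and 0% of all tested probes. Its median over the members was 0.58, in favour of cisplatin, against 0.02 over all probes tested, and 51 members were above 0 and 0 below at an unadjusted p under 0.05, where 3.97% and 3.2% of all probes tested were. Its median standard error was 0.401. No single member therefore passed the test for moving apart between 3 and 6 h.

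By the processed values, members reached a doubling over control at different times in cisplatin. At 3 h 24 of the 164 stood at least 1 above control, where 1.06% of all GI probes, untested ones included, did. At 6 h 67 did, beside 1.4% of all GI probes. Taken by the first time at which they reached 1, 24 members did so at 3 h, 47 at 6 h and 93 at 12 h. These classes are read from the same values that they describe, so they carry no test. The group means climbed at each step from 3 to 6 to 12 h for 106 members. The 6 h mean exceeded the 12 h mean for 30 members, and the 3 h mean exceeded the 6 h mean for 27. The choice took probes that were high at 12 h, so the step from 6 to 12 h in these counts is partly set by it. The median member had reached 32.8% of its 12 h difference at 3 h and 66.4% at 6 h. Those shares are a description, because the 12 h difference chose the members and all the differences use the same control arrays.

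The 3 timing classes had different courses in cisplatin, which are in part fixed by how the classes were defined. Members that first reached 1 at 3 h had a median of 1.25 at 3 h, 1.45 at 6 h and 1.32 at 12 h. By definition each of them stood at 1 or more at both 3 and 12 h. Members that first reached it at 6 h had medians of 0.56, 1.28 and 1.33 at the same times. The largest class, which first reached it at 12 h, had medians of 0.23, 0.66 and 1.18. Its climb from 6 to 12 h follows from the definition, which put each of its members below 1 at 6 h. Under A0, the first of these classes stood at a median of 0.94 at 1 h, 0.70 at 3 h, 0.27 at 6 h and 0.04 at 12 h, whereas the medians of both later classes lay between 0 and 0.20 at all 4 times.

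**Figure D3:**
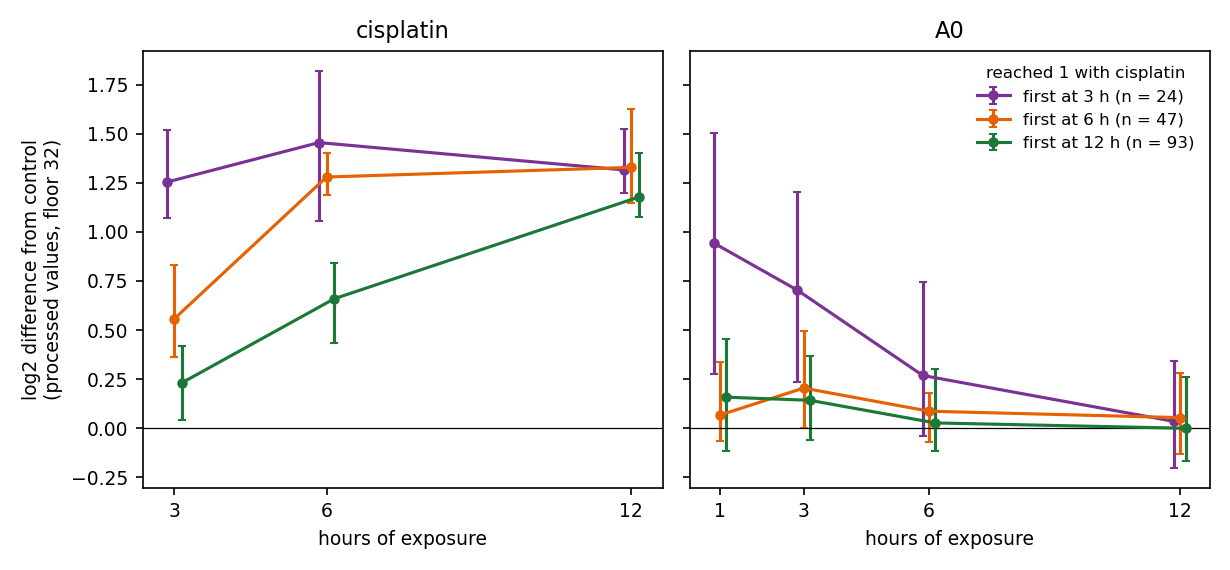
Log2 difference from control on the processed values (y axis) against hours of exposure (x axis) in cisplatin (left) and A0 (right), for members grouped by the first time at which they were at least 1 above control with cisplatin. Points are medians over probes and bars span the quartiles. The 24 members that reached 1 at 3 h in cisplatin stood at 0.94 with A0 at 1 h and at 0.04 with A0 at 12 h.

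Some members stood above control under A0 at earlier times, since the choice looked at A0 only at 12 h. On the processed values 16 members (9.76%) stood at least 1 above control at A0 1 h. At A0 3 h 10 (6.1%) did, and at A0 6 h 2 (1.22%). Over all GI probes, untested ones included, 1.6%, 1.33% and 1.43% did. The share at A0 6 h is thus no higher than that background. In all, 18 members reached 1 at 1 or more of these times, and 2 of them did so at all 3. At A0 1 h the highest of these stood 2.70 above control. The 18 had a median difference from control of 1.26 at A0 1 h, 1.06 at A0 3 h, 0.45 at A0 6 h and -0.04 at A0 12 h. The last of these is near 0 because the choice required it. With cisplatin the same 18 had medians of 1.11 at 3 h, 1.19 at 6 h and 1.22 at 12 h, the last again fixed to at least 1 by the choice. The other 146 members had medians of 0.07, 0.15, 0.0030 and 0 at A0 1, 3, 6 and 12 h and of 0.36, 0.88 and 1.24 at cisplatin 3, 6 and 12 h. All of these differences use the same 2 control arrays. In the opposite direction, 1 member stood at least 1 below control at A0 1 h. At A0 3 h 1 did, and at A0 6 h 1. These were not the same probe throughout. The member at A0 6 h, GI_5453681-S at -1.005, stood at 0.05 and -0.02 at A0 1 and 3 h. Over all GI probes, which unlike the members did not have to be detected, 0.846%, 0.69% and 1.13% were as low. The members' counts are near that background. The lowest value was -1.94 at A0 1 h.

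Of the members, 2 are given by name. GI_16506290-S was taken for its processed-value difference of 2.79 at cisplatin 12 h. Both of its controls lay below 32, so the value was measured from 32 and gives it no rank. Its 2 arrays read 5.72 and 6.39 on the log2 scale after 3 h of cisplatin, 7.04 and 7.43 after 6 h, then 7.82 and 7.30 after 12 h. With A0 it read 4.86 and 4.95 after 1 h, 5.005 and 5.41 after 3 h, 4.55 and 5.17 after 6 h, then 4.71 and 5.29 after 12 h. The controls read 5.38 and 5.06. All 6 cisplatin arrays thus lay above all 8 A0 arrays and both controls, and cisplatin 3 h by the narrowest margin. The probe was detected on 1 of 2 arrays at cisplatin 3 h, on both at 6 and 12 h, on 1 array of A0 3 h, and on none of A0 1, 6 and 12 h and control.

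Since GI_16506290-S was not well above background at A0 6 h, its fold there has only a lower bound, taken against the lowest detected signal of each A0 6 h array or the probe's own, whichever was higher. It was at least 3.28-fold higher with cisplatin 6 h, at 7.24 ± 0.28, than with A0 6 h, at 4.86 ± 0.44 (SD, n = 2 each), and the measured log2 difference was 2.38 (SE 0.307, limma adjusted p = 0.000888). Leaving out single arrays raised that limma p to 0.0202 at most. At 3 h the probe was 0.85 higher with cisplatin than with A0 (limma adjusted p = 0.702), and it was 1.18 higher at cisplatin 6 h than at cisplatin 3 h (limma adjusted p = 0.185).

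GI_5453681-S was taken as the called member with the largest measured difference between cisplatin 6 h and A0 6 h, a rank that rests on 1 array. Its arrays read 9.06 and 9.23 after 3 h of cisplatin, 10.21 and 10.19 after 6 h, then 9.77 and 9.19 after 12 h. With A0 they read 7.80 and 7.97 after 1 h, 7.58 and 8.04 after 3 h, 7.89 and 6.07 after 6 h, then 7.85 and 7.59 after 12 h. The controls read 8.05 and 7.76. The probe was detected on all 16 arrays and peaked at cisplatin 6 h, while the 8 A0 arrays lay between 6.07 and 8.04, none of them above control 1. A0 6 h replicate 2 read far below its partner.

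For GI_5453681-S the cisplatin 6 h mean was 10.20 ± 0.02 and the A0 6 h mean 6.98 ± 1.28 (SD, n = 2 each). The log2 difference was 3.22 (SE 0.417, limma adjusted p = 0.000888), or 9.31-fold. Without A0 6 h replicate 2 it was 2.31 (limma adjusted p = 0.00124), so the call did not rest on that array but the size did. In the same fit the difference of GI_16506290-S was 2.69, so the order of these probes turned. At 3 h the probe was 1.33 higher with cisplatin than with A0 (limma adjusted p = 0.571), and it was 1.05 higher at cisplatin 6 h than at cisplatin 3 h (limma adjusted p = 0.423). Relative to control it stood 1.24 higher at cisplatin 3 h, 2.30 at 6 h and 1.58 at 12 h.

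**Figure D4:**
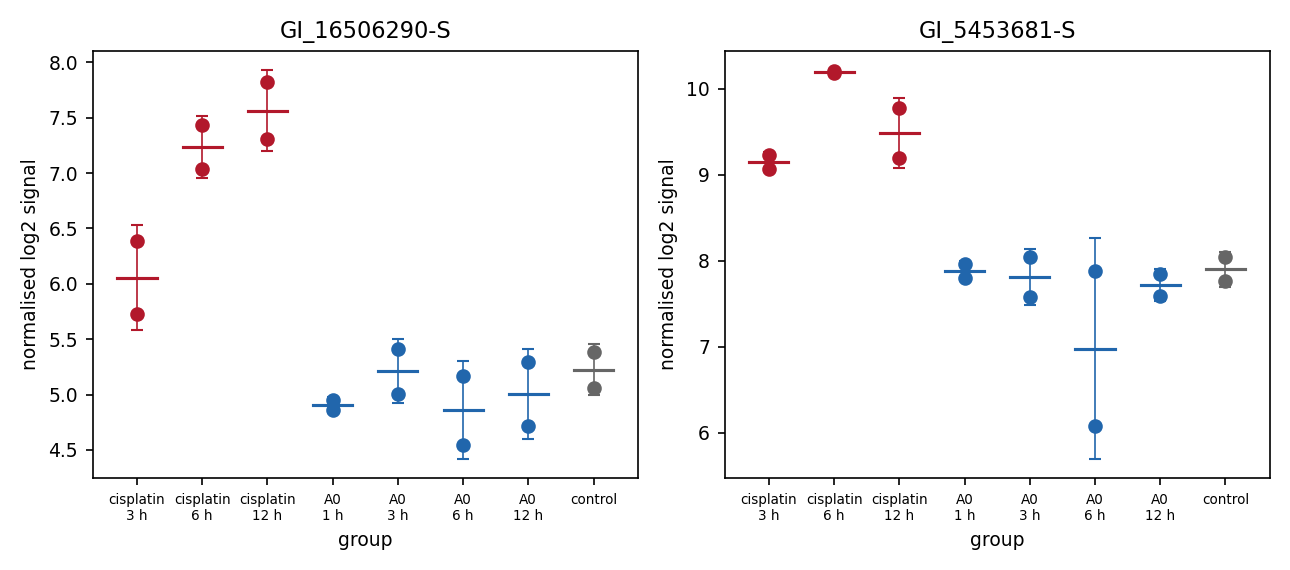
Normalised log2 signal (y axis) of GI_16506290-S (left) and GI_5453681-S (right) in the 8 groups (x axis). Points are the 2 arrays of a group, lines their means and bars the SD. At 6 h the cisplatin means are 7.24 and 10.20, and the A0 means are 4.86 and 6.98.

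The probe names end in S, I or A, a property that the choice did not use, and 142 of the members (86.6%) end in S, 8 (4.88%) in I and 14 (8.54%) in A. Over the 9293 probes tested, 82.4% end in S, 5.88% in I and 11.7% in A. At 6 h limma's test called 52 of the 142 members ending in S higher with cisplatin than with A0, 2 of the 8 ending in I and 6 of the 14 ending in A. Among all probes tested with these endings it called 5.12%, 2.38% and 4.14% higher. By detection in the controls, it called 38 of the 108 members detected on both, 11 of the 33 detected on 1 and 11 of the 23 detected on neither, beside 4.77%, 4.23% and 6.93% of all tested probes so detected. The median difference over the members was 0.68, 0.73 and 1.09 in these 3 sets, and the last includes signals below detection. The differences between such sets were not tested.

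In these values the members lay between the other probes that were raised at cisplatin 12 h. Among the 57 that stood at least 0.5 below control at A0 12 h, limma's test called 38 higher with cisplatin 6 h than with A0 6 h (66.7%) and 0 lower. Among the 122 that stood at least 0.5 above control at A0 12 h, it called 13 higher (10.7%) and 6 lower. Of all probes tested, 4.84% were called higher and 3.29% lower. The median differences were 0.73 for the members, 1.34 for the 57 and 0.27 for the 122. Between cisplatin 6 h and 3 h the medians were close, at 0.45 for the members, 0.58 for the 57 and 0.43 for the 122. Between A0 6 h and 3 h they were -0.12, -0.25 and 0.19 in the same order. The sets were separated by A0 12 h alone, and the differences between them were not tested.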

How the data were processed

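Per the file headers, each array file gives for every probe a linear mean intensity that the authors did not normalise between arrays, the spread of the bead signal, a bead count and a detection score, which is a fraction from 0 to 1. The submitters' processing notes name BeadStudio 1.5.1.3. The authors' deposited table of processed intensity values, which chose the members, is linear and background subtracted, and how it was scaled is not stated. Against each array's scanner signal its slope ran from 0.848 to 2.55, and its column medians were 10.9 to 21.3. Per array, 7626 to 9640 probes were detected and the median bead count was 41 to 42. Only 2 arrays per group limit the precision.

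Scanner signals were normalised with neqc (limma 3.58.1, R 4.3.3, offset 16). The 9293 of 24350 probes with a detection score of at least 0.99 on both arrays of at least 1 group were fitted in 1 limma model over 16 arrays, with 8 residual and 5.70 prior degrees of freedom. Each of the 5 comparisons is a difference between means of groups that took no part in choosing the members. The arrays that chose the members still enter the tests. They help to set the variance of every probe, were normalised with the rest and count towards the detection filter. The members, lists and tests were chosen with earlier results of these data known. None of the 24350 GI numbers (0) matched the reference table, so the 17 gene lists were not used and no sequence is shown. The rule for names without genes took the member with the highest processed-value difference at cisplatin 12 h, floored values included, and the called member with the largest difference between cisplatin and A0 at 6 h. Alternatives are in the closing section.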

Additional observations from a re-analysis of the deposited data

Results flagged for a closer look

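The 2 drugs differed at 6 h by a direct test at 60 of the 164 members, all higher with cisplatin, and this test of the difference itself is what marks the result for a closer look. The counts at 3 h and for the interaction of drug and time were 0.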

How the results depend on the processing

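In the main model 60 members were called higher with cisplatin 6 h than with A0 6 h, beside 4.84% of all probes tested. The count was 51 (4.23% of all probes tested) with the deposited processed values and 53 (4.51%) with 75th percentile centring. Without a filter on dim probes it was 46, beside 1.33% of all probes then tested. It was 62 (5.06%) with a trended and robust variance and 67 (6.12%) under a replicate block. Of the 94 members that also met both limits on the normalised values, 40 were called, an alternative chosen after seeing the data. When the model held just the 4 arrays of the pair the count was 16 (1.42%). The share over all probes thus moved between these fits as well. Leaving out 1 array gave 18 to 65. Both named probes kept this call in every one of these fits. The counts of 0 stayed 0 in all fits for cisplatin 3 h against A0 3 h and for A0 6 h against A0 3 h. For cisplatin 6 h against 3 h the deposited processed values gave 1, and leaving out 1 array gave 0 to 1. For the interaction leaving out 1 array also gave 0 to 1, the 1 being GI_5453681-S without A0 6 h replicate 1, at 2.79 on the log2 scale (limma adjusted p = 0.0469). The number of members was 177 and 115 with floors of 16 and 64, 118 on the normalised values (94 shared) and 165 without the detection score, and leaving out 1 array gave 140 to 378. The cause of these shifts was not tested. The labels number the samples but do not say that a number marks a shared culture or day. The deviations of same-numbered arrays correlated at -0.257 to 0.376 over 28 pairs of groups, 18 of them over 0.1 and 1 under -0.1. In every group replicate 1 detected fewer probes than replicate 2. Whether arrays of the same number share an effect was not tested. The main model left the numbers out because the labels give no pairing, and the replicate block changed no other count of members.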
